A study of Mus musculus with 56 samples.

Results

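The comparison described here is between untreated cells that carry a β-catenin ΔC allele with no second allele (ΔC/-) and untreated cells that carry the ΔC allele beside a floxed allele (ΔC/fl). The samples were chosen by their labels alone, as all untreated ΔC/- and ΔC/fl cells, and they are 8 of the 56 samples of the series. Both genotypes are mammary tumor cell lines of mice with the polyoma middle T oncogene under the MMTV promoter, which is active mainly in mammary epithelium, on an FVB/N background. In the methods of the study, fibroblasts were removed from the tumor cultures by differential trypsinization, the floxed allele was deleted by infection with an adenovirus that expresses Cre and GFP, and GFP-positive cells were sorted. The lines with an intact floxed allele received the GFP virus without Cre. The untreated cells came from a Wnt3a experiment, in which they were the controls of cells given 100 ng/ml Wnt3a for 3 days, and from a TGFβ experiment, in which they were the controls of cells given 2 ng/ml TGFβ for 4 days. Each experiment had 2 biological replicates of each genotype, so that 4 ΔC/- samples were compared with 4 ΔC/fl samples. The labels do not say what the ΔC allele lacks, how many lines or clones stand behind a genotype, or whether replicates were separate lines or cultures, so the genotype and the cell line cannot be told apart and p-values measure only the spread between these samples.

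β-catenin has 2 known roles in epithelial cells. At the membrane it links E-cadherin to α-catenin in adherens junctions, where its close relative plakoglobin can take its place. In the nucleus it binds TCF/LEF factors at Wnt target genes, and its C-terminal part recruits co-activators of transcription, while the N-terminal part of the armadillo repeats binds Bcl9 and Bcl9l. In mammary tumor cells, Wnt and TGFβ signals are studied in epithelial-mesenchymal transition (EMT), in which epithelial cells lose junctions and keratins and gain vimentin, matrix proteins and the transcription factors of the Zeb, Snail and Twist families.

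All values are CPM, read counts per M reads of an effective library size. The 8 samples held 23.1 to 30.8 M reads assigned to genes, 1 read was worth 0.0315 to 0.0431 CPM, and 3 reads, taken as the limit of detection for counting error only, were worth 0.0944 to 0.129 CPM. Pearson's r of log2(CPM + 1) over 12259 genes was 0.900 to 0.993 between samples of the same genotype and 0.816 to 0.940 between samples of different genotypes. The lowest r within the ΔC/- cells involved replicate 2 of the Wnt3a experiment, and the lowest within the ΔC/fl cells also involved replicate 2 of that experiment. Below, the 4 values of a genotype are given in 1 order, replicates 1 and 2 of the Wnt3a experiment and then replicates 1 and 2 of the TGFβ experiment. Differences are ΔC/- minus ΔC/fl on the log2(CPM + 1) scale with their standard errors, 4 samples against 4, which understates the change of genes near 0.

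The targeted gene was looked at first. Ctnnb1, which encodes β-catenin, was at 1035, 1005, 2030.1 and 1463 CPM in ΔC/fl cells and at 1613, 1051, 2127 and 2161 CPM in ΔC/- cells. The groups overlapped, and the difference was 0.33 ± 0.20 with an adjusted p of 0.281 in limma. The count covers reads of both alleles over the whole gene, so it does not check the deletion of the floxed allele. Of the cell type markers, 7 of 8 mammary epithelial genes were tested. Cdh1, the gene of E-cadherin, was at 297, 255, 324 and 335 CPM in ΔC/fl and 263, 351, 278 and 284 CPM in ΔC/- cells, and Epcam was at 354, 239, 369 and 388 CPM and 407, 576, 379 and 404 CPM. Both genotypes therefore expressed the defining epithelial genes, and neither gene passed the test, whereas among the other 5 markers Krt18 rose and Krt14 and Cldn7 fell. The summed level of the 8 fibroblast markers was 46.6 to 286 CPM in ΔC/fl cells and 8.25 to 9.90 CPM in ΔC/- cells, and 3 of the 4 that were tested, Col1a2, Col3a1 and Pdgfra, fell. Thy1 was at 0 in all 8 samples. The 8 leukocyte markers added up to 4.60 to 15.1 CPM in ΔC/fl and 19.5 to 81.0 CPM in ΔC/- cells. Of these Cd68, a lysosomal protein of macrophages and other cells, was at 3.05, 5.56, 6.48 and 10.5 CPM and 37.8, 10.8, 79.4 and 59.2 CPM and rose, Lyz2 fell, and Adgre1 was at 0 in all 8 samples. No endothelial or adipocyte marker reached the level needed for a test. In such bulk samples fewer cells of a type and less RNA per cell cannot be told apart, and the part of the fibroblast markers in the results on matrix genes was not tested.

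A gene was called when its adjusted p did not exceed 0.05 and its absolute log2 difference was 1 or more. By this rule, 1496 of 12259 genes were called, which is 12.2%. ΔC/- cells had 682 genes at a higher level (5.56%) and 814 at a lower level (6.64%). In 1252 of the called genes the 4 values of a genotype did not overlap with those of the other, and over all tested genes this held for 11.4% in the higher and 8.79% in the lower direction. The falls were larger than the rises. The median called difference was -1.83 for the lower and 1.37 for the higher genes, and 139 genes fell by at least 3 on the log2 scale against 18 that rose as much. In 51 of the genes that fell, no read was found in any ΔC/- sample, whereas 3 of the genes that rose had none in the ΔC/fl samples. All 1496 genes differed in the same direction in both experiments. The calls were made over both experiments together, so this is largely set by the rule and is no separate check. Fitted alone, with 2 samples against 2, the Wnt3a experiment gave 140 calls (30 higher and 110 lower) and the TGFβ experiment 2066 (923 higher and 1143 lower). A test of the difference between the experiments called 0 genes in limma, with 298 of 12259 at an unadjusted p below 0.05, 0 in edgeR, with 219, and 0 in limma with the replicate number as a block, with 797. With groups of 2 samples such a test can miss real differences, so 0 calls do not show that the experiments were alike.

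**Figure D1:**
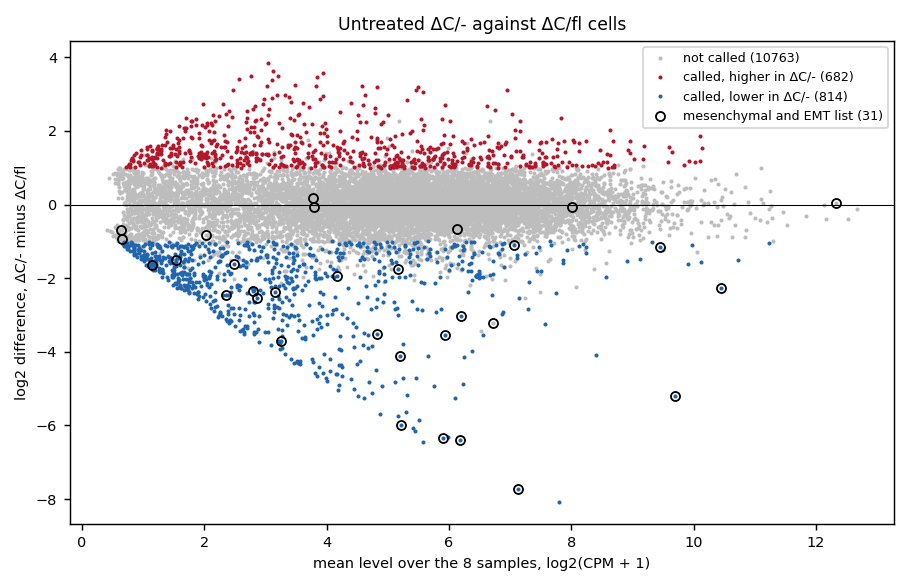
Each point is 1 of 12259 tested genes, with its mean level over the 8 samples in log2(CPM + 1) on the x axis and the log2 difference ΔC/- minus ΔC/fl on the y axis. Red and blue points are the 682 genes called higher and the 814 called lower, and open circles mark the 31 tested genes of the mesenchymal and EMT list, 22 of which are blue and 0 red.

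Sequences upstream of some of the changed genes are shown to let a reader see the letters behind the names. They are the 250 bases before the annotated start, from the RefSeq promoter table for GRCm38.p6, 5′ to 3′ on the strand of the gene. Of the 119 genes that the naming rule selected, 76 had an entry. On both strands 5 motifs were searched, and in the windows below the matches to 1 of them are set in capitals. The motif TGACTCA, which AP-1 factors (Fos and Jun) are known to bind, is shown for Col6a1, the gene with the largest fall, and for Mmp10 and Il1a, which rose.
Col6a1 (chr10:76726045-76726294, minus strand): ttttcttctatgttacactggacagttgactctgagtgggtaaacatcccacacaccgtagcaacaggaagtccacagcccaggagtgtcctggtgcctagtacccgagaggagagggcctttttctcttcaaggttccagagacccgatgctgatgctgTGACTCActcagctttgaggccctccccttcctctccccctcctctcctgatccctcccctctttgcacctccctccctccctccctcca
Mmp10 (chr9:7502092-7502341, plus strand): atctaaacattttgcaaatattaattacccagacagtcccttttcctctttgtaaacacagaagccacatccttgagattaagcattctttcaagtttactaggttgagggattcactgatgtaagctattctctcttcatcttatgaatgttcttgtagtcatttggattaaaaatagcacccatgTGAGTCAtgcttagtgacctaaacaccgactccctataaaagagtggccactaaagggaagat
Il1a (chr2:129309973-129310222, minus strand): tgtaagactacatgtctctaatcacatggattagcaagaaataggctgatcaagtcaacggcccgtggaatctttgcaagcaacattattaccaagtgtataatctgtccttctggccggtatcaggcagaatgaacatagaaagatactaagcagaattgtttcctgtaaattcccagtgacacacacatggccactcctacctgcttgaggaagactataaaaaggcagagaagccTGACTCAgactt

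The interferon-stimulated response element, taken as TTTC, any 2 bases and TTTC, is shown for the interferon-induced genes Gbp2 and Ifit3, which fell. The window of Gbp2 also holds the AP-1 motif, which is left in lower case. The TCF/LEF motif CTTTGAT is shown for Wnt11 and Tgif1, which rose, and both hold it on the opposite strand. The windows shown were picked, and other named genes hold the same motifs. The response element was found in 7 named genes, among them Vegfa and Ppp1r15a, which rose, and Cldn7 and Esr1, which fell. It was not found for Ifit2, which fell. CTTTGAT was found in 4, among them Armcx2, which rose, and Rbms3, which fell. Tgif1 was not called without replicate 1 of the ΔC/- cells in the Wnt3a experiment (0.94).
Gbp2 (chr3:142620413-142620662, plus strand): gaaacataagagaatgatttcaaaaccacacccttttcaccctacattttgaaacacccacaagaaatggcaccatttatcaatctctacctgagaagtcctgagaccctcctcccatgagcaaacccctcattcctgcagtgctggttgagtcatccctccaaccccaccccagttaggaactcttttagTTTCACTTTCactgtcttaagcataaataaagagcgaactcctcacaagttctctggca
Ifit3 (chr19:34583279-34583528, plus strand): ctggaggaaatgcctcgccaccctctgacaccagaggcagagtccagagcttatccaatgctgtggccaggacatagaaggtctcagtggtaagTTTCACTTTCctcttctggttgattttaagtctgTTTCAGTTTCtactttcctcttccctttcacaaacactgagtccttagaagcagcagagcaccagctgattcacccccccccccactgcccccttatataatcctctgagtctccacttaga
Wnt11 (chr7:98834862-98835111, plus strand): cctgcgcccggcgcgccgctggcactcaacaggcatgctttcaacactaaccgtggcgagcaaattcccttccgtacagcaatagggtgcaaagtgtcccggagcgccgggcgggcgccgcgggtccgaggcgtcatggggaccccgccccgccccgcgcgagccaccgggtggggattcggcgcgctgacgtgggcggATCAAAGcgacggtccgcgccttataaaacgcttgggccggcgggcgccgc
Tgif1 (chr17:70846778-70847027, minus strand): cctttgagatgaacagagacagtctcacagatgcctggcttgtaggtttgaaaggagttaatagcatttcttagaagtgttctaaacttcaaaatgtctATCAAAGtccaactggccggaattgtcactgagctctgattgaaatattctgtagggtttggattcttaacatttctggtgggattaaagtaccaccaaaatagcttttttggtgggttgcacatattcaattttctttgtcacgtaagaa

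The share of genes that held a motif in this window was described without a test. TGACTCA was found in 4.46% of all 32851 windows, in 4.30% of the 9749 tested genes with a window, in 8.02% of those called higher and in 5.70% of those called lower. The response element was found in 2.98% of windows, 3.04% of tested genes, 3.05% of the higher and 5.01% of the lower genes. CTTTGAT was found in 3.21% of windows, 2.77% of tested genes, 3.82% of the higher and 2.94% of the lower genes. CACCTG, the E-box that Zeb and Snail factors bind, was found in 17.2%, 18.0%, 27.1% and 20.03% in the same order, and CATTCC, bound by TEAD factors, in 12.6%, 12.9%, 15.1% and 18.5%. Genes of different base composition hold different motifs by content alone, and this was not adjusted for.

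Col6a1 and Pdgfrb had the largest falls. Col6a1, which encodes a chain of collagen VI, was at 55.2, 420.4, 969.7 and 321 CPM in ΔC/fl cells and at 0, 0.0694, 0.155 and 0.157 CPM in ΔC/- cells, a difference of -8.07 ± 0.65 (adjusted p = 1.04e-04). Pdgfrb, a receptor of platelet-derived growth factor in mesenchymal cells, was at 63.7, 334, 494 and 215 CPM and at 0, 0.0347, 0.0776 and 0 CPM (-7.74 ± 0.52, adjusted p = 4.25e-05). In both genes every ΔC/- value lay at or near the limit of detection. Vim, the gene of the intermediate filament vimentin, which is not among the 10 largest falls, was at 1046, 2838, 1281 and 1288 CPM in ΔC/fl and 41.5, 129.8, 18.2 and 25.047 CPM in ΔC/- cells (-5.19 ± 0.45, adjusted p = 1.46e-04). The ΔC/- cells thus kept a measurable vimentin level in all samples, far under that of the ΔC/fl cells. Mmp14, a membrane-bound matrix metalloprotease, was at 27.8, 80.7, 121 and 60.8 CPM and 0, 0, 0.0776 and 0 CPM (-5.99 ± 0.38). The other genes among the 10 largest falls were Col6a2 (-6.32), Col5a1 (-6.40), the secreted glycoprotein gene Fstl1 (-6.35), the actin-crosslinking Flnc (-6.15), the imprinted Peg10 (-6.07), Dpysl3 (-5.86) and Prune2 (-6.44).

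Of the mesenchymal and EMT list, 31 of 37 genes were tested, 22 fell and 0 rose, and the median difference was -2.25, beside a median of 0.02 over all genes tested. In the Wnt3a experiment alone 6 fell and in the TGFβ experiment alone 23. Some members, such as Col3a1, Mmp14, Fstl1 and Col5a1, reached the 1 CPM needed for a test only in ΔC/fl cells. For such genes only a fall could be called, so the count and the median are in part fixed by the filter. How many members entered in this way was not counted. The transcription factors of the list did not all move. Zeb1 was at 39.3, 37.4, 76.4 and 51.8 CPM in ΔC/fl and 4.18, 2.64, 3.49 and 3.4 CPM in ΔC/- cells (-3.51 ± 0.25, adjusted p = 5.49e-05), and Zeb2 at 21.3, 17.8, 47.8 and 23.8 CPM and 8.65, 3.36, 6.56 and 6.1 CPM (-1.95 ± 0.33, adjusted p = 0.00447). Snai1 was called lower (-1.62 ± 0.36), a call that was lost without replicate 2 of the TGFβ experiment of ΔC/- cells (adjusted p = 0.0516) or of ΔC/fl cells (adjusted p = 0.0596). Twist1, at 11.7, 12.2, 12.4 and 11.1 CPM and 17.8, 12.7, 11.5 and 12.8 CPM, and Snai2, at 11.3, 7.67, 20.4 and 10.9 CPM and 25.5, 5.03, 9.43 and 13.1 CPM, overlapped between the genotypes and did not pass the test. Zeb1, Zeb2, Snai1, Snai2, Twist1, Col3a1, Pdgfra and some other members of the lists were picked for the text after their values were seen. Fn1, the fibronectin gene, differed by 0.03 ± 0.41 (adjusted p = 0.963), and Cdh2, the gene of N-cadherin, by -0.66 ± 0.20 (adjusted p = 0.0504), under the 2-fold limit. Col3a1 had no read in any ΔC/- sample and 2.85, 22.6, 34.8 and 7.84 CPM in ΔC/fl cells, so that it was at least 155-fold lower in ΔC/- cells against a limit of 3 reads per library.

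**Figure D2:**
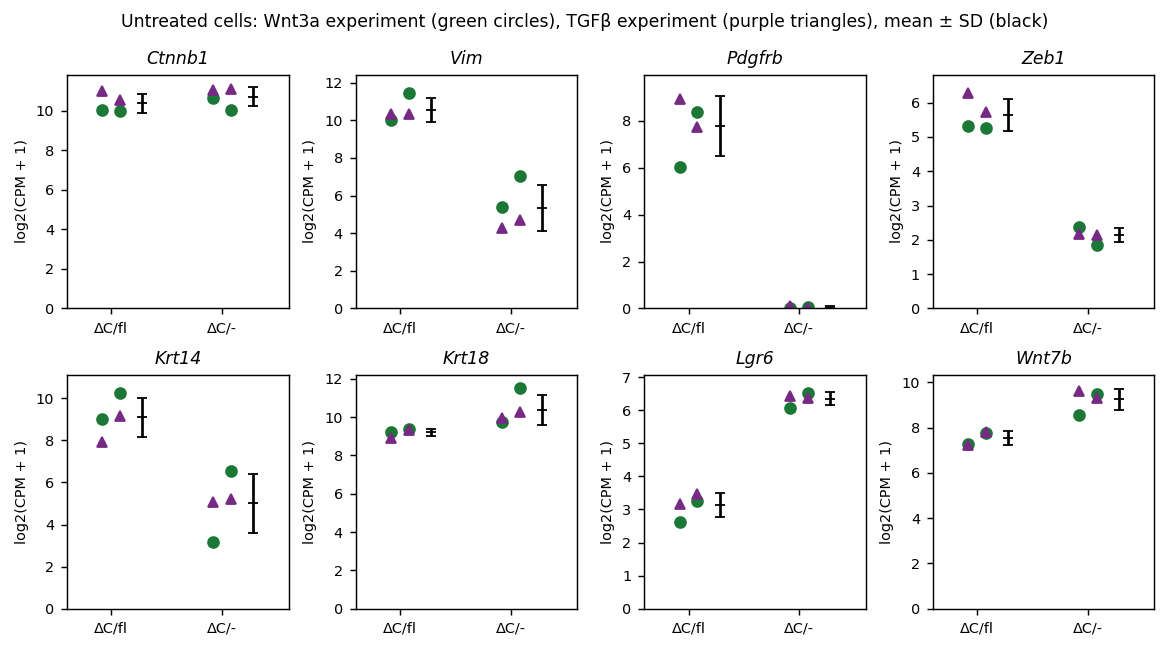
Each panel plots log2(CPM + 1) of 1 gene in the 4 ΔC/fl and the 4 ΔC/- samples, with circles for the Wnt3a experiment, triangles for the TGFβ experiment and the mean ± SD of the 4 samples in black. Ctnnb1 overlaps between the genotypes, Vim, Pdgfrb, Zeb1 and Krt14 are lower and Krt18, Lgr6 and Wnt7b higher in every ΔC/- sample.

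Lists of related function were described in the same way. Over all genes tested 5.56% were called higher and 6.64% lower, and the counts of each list are to be read beside these shares. A gene that reached the 1 CPM needed for a test only in ΔC/fl cells could only be called lower. A gene that reached it only in ΔC/- cells could only be called higher. Counts and medians of all lists are in part fixed in this way. Examples are Acta2, Actg2 and Myl9 of the contractile, Itga1 of the integrin and Rbms3 of the YAP/TEAD list, which could only fall. Of 29 tested matrix proteases and inhibitors, 11 fell and 3 rose, with a median of -0.46. The aggrecanase gene Adamts5 was at 7.62, 6.59, 44.1 and 15.7 CPM in ΔC/fl and 1.16, 0.416, 0.776 and 1.2 CPM in ΔC/- cells (-3.003 ± 0.42). The 3 that rose were Mmp10 (stromelysin-2) at 8.56, 4.31, 6.56 and 6.73 CPM and 55.4, 67.0, 30.9 and 34.0 CPM (2.62 ± 0.29), Plau, the gene of urokinase (1.498 ± 0.27), and Adam12 (1.99 ± 0.45), whose call was lost without replicate 2 of the ΔC/- cells in the TGFβ experiment (adjusted p = 0.0594). Mmp10 and Plau therefore lay on the other side from Mmp14 and from Mmp2 and Mmp9, which fell. Of 19 tested caveolar and contractile genes 7 fell and 0 rose, among them Myl9, a myosin light chain of smooth muscle, at 9.01, 43.9, 14.8 and 18.6 CPM and 0, 0, 0 and 0.0315 CPM (-4.26 ± 0.41). Of 15 tested integrins 4 fell and 0 rose, with Itga7, a laminin receptor subunit, showing the largest difference (-3.43 ± 0.36). Of 23 tested YAP/TEAD targets 3 fell (Ankrd1, Arhgef17 and Rbms3), 0 rose, and the median was -0.07. The called share of this list was 13.0%, near the 12.2% of all genes. Arhgef17 was not called without replicate 2 of the ΔC/- cells in the TGFβ experiment.

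The basal and luminal genes of the mammary epithelium divided by gene. Krt14, the keratin of basal cells, was at 522, 1199, 242 and 571 CPM in ΔC/fl and at 7.99, 93.3, 33.2 and 35.7 CPM in ΔC/- cells (-4.08 ± 0.69, adjusted p = 0.00435). Trp63, the transcription factor of basal and squamous epithelia, was at 1.88, 4.83, 55.5 and 9.74 CPM and 0.0828, 0.347, 0.311 and 0.315 CPM (-2.996 ± 0.63, adjusted p = 0.0118). Neither gene overlapped between the genotypes, although the ΔC/fl values of Trp63 spread widely. With Krt6a and the desmosomal cadherin gene Dsg3, 4 of 17 tested basal and squamous genes fell, and Lama3, a chain of laminin-332, rose (1.71 ± 0.37). The median of the list was 0.02, and 12 of the 17 genes were not called.

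Of 17 tested luminal genes 5 rose (Krt18, Foxa1, Lcn2, Csn3 and Tfap2c), Esr1 fell, and the median was 0.83. Foxa1 and Csn3 reached the 1 CPM needed for a test only in ΔC/- cells and could only be called higher. Esr1 reached it only in ΔC/fl cells and could only be called lower. The count and the median are thus in part fixed by the filter. Tfap2c, a transcription factor of luminal progenitors, was at 1.75, 1.38, 1.68 and 2.09 CPM in ΔC/fl and 9.77, 8.25, 10.4 and 10.4 CPM in ΔC/- cells (1.98 ± 0.19, adjusted p = 2.60e-04). Lcn2, a secreted iron-siderophore carrier, was at 0.454, 0.474, 25.3 and 8.32 CPM and 30.5, 3.02, 214 and 93.6 CPM (3.06 ± 0.62). Its values were higher in the TGFβ experiment in both genotypes, and the groups overlapped. Esr1, the estrogen receptor gene, was at 2.33, 4.65, 12.7 and 6.41 CPM and 0.0414, 0.0347, 0 and 0 CPM (-2.70 ± 0.33). Krt18 was at 589.8, 656, 481 and 631 CPM and 866, 2874, 976 and 1209 CPM (1.16 ± 0.34, adjusted p = 0.0459), close to the threshold, and its call was lost when any of 7 single samples was left out (for example an adjusted p of 0.13 without replicate 2 of the ΔC/- cells in the TGFβ experiment) and without replicate 2 of the Wnt3a experiment of ΔC/- cells its difference was 0.78. Csn3, a milk casein at 0.0431 to 5.22 CPM, lost its call without each of 4 samples (adjusted p of 0.0567 to 0.0789). Krt8, the partner of Krt18, differed by -0.05 ± 0.50 (adjusted p = 0.959).

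Of 34 tested genes of epithelial junctions and polarity 4 rose and 1 fell, which is 14.7% beside 12.2% of all genes, and the median was 0.37. Cldn4, a claudin of tight junctions, was at 77.1, 133, 420.2 and 360.0 CPM in ΔC/fl and 272, 492, 747 and 665 CPM in ΔC/- cells (1.35 ± 0.29), and the polarity gene Crb3 at 6.48, 9.31, 8.44 and 14.6 CPM and 18.8, 27.7, 23.9 and 30.2 CPM (1.32 ± 0.26). Cldn7 went the other way, at 53.7, 60.4, 58.7 and 81.4 CPM and 10.1, 20.4, 16.9 and 18.7 CPM (-1.91 ± 0.25, adjusted p = 0.00115). Cldn1 rose (1.23 ± 0.27), but not without replicate 2 of the TGFβ experiment of ΔC/fl (adjusted p = 0.0503) or ΔC/- cells (adjusted p = 0.0679), and F11r was the fourth. Jup, the gene of plakoglobin, differed by -0.48 ± 0.43 (adjusted p = 0.473).

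**Figure D3:**
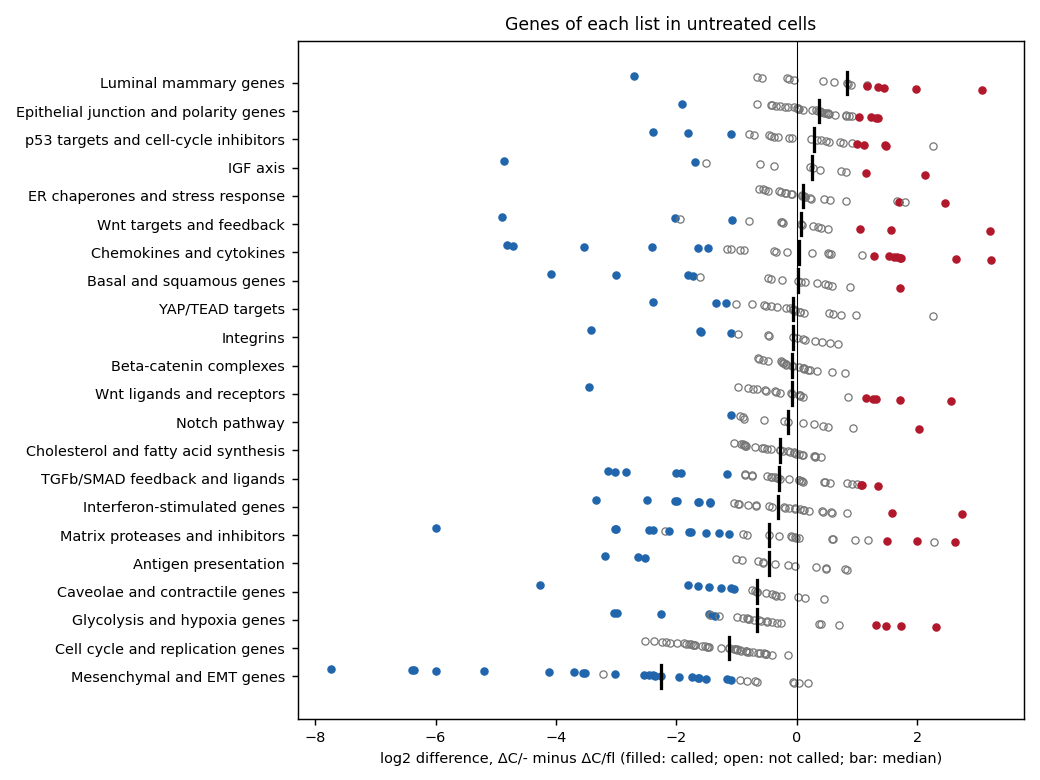
Each row is a gene list and each point a tested gene, with the log2 difference ΔC/- minus ΔC/fl on the x axis. Filled red and blue points were called higher and lower, open points were not called, and the black bar is the list's median. The mesenchymal and EMT list lies farthest to the left with a median of -2.25, followed by cell cycle genes with a median of -1.13 and no filled point.

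Genes of the Wnt pathway went both ways. Of 21 tested genes of the β-catenin complexes, a list of catenins, the destruction complex, Bcl9 and Pygopus proteins and co-factors of transcription without the TCF/LEF factors, 0 rose and 0 fell in limma and edgeR (median -0.08). Bcl9 differed by -0.08 ± 0.22, Bcl9l by -0.64 ± 0.48 and Pygo2 by 0.22 ± 0.19, and Pygo1 was too low for a test, with 0 CPM in every ΔC/- sample. Tcf7l1, a TCF factor that mainly represses and that belongs to the list of Wnt targets, was at 5.67, 9.13, 11.1 and 10.8 CPM in ΔC/fl and 0.745, 1.14, 2.02 and 2.11 CPM in ΔC/- cells (-2.03 ± 0.21, adjusted p = 3.87e-04), and the other TCF/LEF genes did not pass the test, with 0.51 for Tcf7, -0.23 for Tcf7l2 and 0.36 for Lef1.

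Among 17 tested Wnt targets and feedback genes 3 rose and 3 fell. Axin2, the most widely used target of β-catenin and a negative regulator of the pathway, was at 0.778, 3.19, 7.12 and 2.16 CPM and 0.29, 0.555, 3.53 and 1.29 CPM, with a difference of -0.80 ± 0.39 (adjusted p = 0.191) and overlapping groups. Apcdd1, an inhibitor of Wnt signaling at the membrane, was at 11.8, 38.9, 60.7 and 27.1 CPM and 0.0414, 0, 0.0776 and 0 CPM (-4.90 ± 0.41, adjusted p = 1.18e-04). Lgr6, a receptor of R-spondins, was at 5.16, 8.62, 8.04 and 10.1 CPM and 65.5, 89.987, 84.5 and 82.0 CPM (3.20 ± 0.23, adjusted p = 5.47e-05), and the groups were far apart. Rnf43, which removes Wnt receptors, rose (1.57 ± 0.22), and Sfrp1, a secreted Wnt antagonist, fell (-1.08 ± 0.22), the latter not without replicate 2 of ΔC/- (adjusted p = 0.0594) or replicate 1 of ΔC/fl cells in the TGFβ experiment (-0.94). Myc was at 99.5, 100.3, 139 and 121 CPM and 239.9, 121, 388 and 276 CPM (1.046 ± 0.25, adjusted p = 0.0205), close to the threshold, and lost its call when any of 5 single samples was left out (differences of 0.89 to 1.09, adjusted p of 0.0403 to 0.0778) and with rescaling by the median of ratios (0.995). The groups overlapped, and Myc lies in a stretch of 5 consecutive tested genes of chromosome 15 that were all called higher, with Gm19510, Lratd2, 9930014A18Rik and Pvt1. Ccnd1, the gene of cyclin D1, differed by -0.25 ± 0.31 (adjusted p = 0.603). Of 22 tested Wnt ligands and receptors 5 rose and 1 fell. Wnt7b was at 156, 219, 151 and 225 CPM and 379, 726, 781 and 632 CPM (1.71 ± 0.26), Wnt7a at 63.0, 34.6, 11.1 and 30.9 CPM and 156, 209, 168 and 185 CPM (2.55 ± 0.38), and Wnt5a, a mostly non-canonical ligand, at 7.13, 11.6, 18.8 and 11.2 CPM and 0.0828, 0, 0.349 and 0.157 CPM (-3.46 ± 0.24, adjusted p = 5.29e-05). Wnt9a, Wnt11 and Porcn, the acyltransferase that all Wnt ligands need, were the other 3 that rose, of which Wnt11 (1.31 ± 0.33) was not called without each of 3 samples (adjusted p of 0.0466 to 0.0888, with a difference of 0.98 in the first case).

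Chemokine and cytokine genes changed in large numbers and in both directions, with 8 higher and 6 lower of 26 tested (median 0.03). Ccl2, Ccl7 and Ccl9, which attract monocytes, were among those that fell. Ccl2 was at 138, 236, 149.6 and 163 CPM in ΔC/fl and 19.048, 11.3, 15.2 and 10.2 CPM in ΔC/- cells (-3.54 ± 0.25, adjusted p = 5.29e-05), Ccl7 at 55.2, 107, 64.0 and 62.4 CPM and 2.61, 1.84, 1.98 and 0.724 CPM (-4.71 ± 0.29) and Ccl9 at 52.4, 83.7, 25.4 and 35.1 CPM and 0.538, 2.6, 0.194 and 0.0315 CPM (-4.82 ± 0.31). Among those that rose were the gene of interleukin 1α, Il1a, at 2.76, 0.215, 2.28 and 1.97 CPM and 37.9, 15.7, 28.2 and 17.0 CPM (3.23 ± 0.42, adjusted p = 0.00123), Il23a at 1.39, 0.56, 5.32 and 2.35 CPM and 35.5, 4.3, 24.029 and 23.6 CPM (2.64 ± 0.54), and Cxcl1, which attracts neutrophils, at 33.1, 18.0, 44.8 and 37.8 CPM and 117, 85.5, 173 and 73.8 CPM (1.71 ± 0.32). Vegfa, the angiogenic growth factor, was at 59.0, 71.7, 287 and 171 CPM and 269, 225, 823 and 506 CPM (1.72 ± 0.24), with higher values in the TGFβ experiment in both genotypes and an overlap of the groups across experiments.

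Interferon-stimulated genes fell in 8 of 32 tested and rose in 2 (median -0.31). Gbp2, a guanylate-binding protein gene induced by interferon γ, whose upstream window with TTTCACTTTC is printed above, was at 13.5, 28.1, 35.5 and 27.996 CPM and 2.03, 0.659, 1.75 and 2.17 CPM (-3.33 ± 0.30, adjusted p = 1.87e-04). Ifit3, with 2 such elements in its window, was at 1.17, 4.01, 13.4 and 7.43 CPM and 0.0414, 0.0347, 0.194 and 0.0315 CPM (-2.49 ± 0.40), and Ifit2 fell (-2.03 ± 0.30). The 2 that rose were Usp18, an inhibitor of the interferon receptor, at 0.324, 0.689, 2.16 and 1.17 CPM and 13.2, 8.01, 13.7 and 15.4 CPM (2.74 ± 0.25), and Mx1 (1.57 ± 0.20), which the RefSeq table lists as a transcribed pseudogene. Of 16 tested antigen presentation genes 3 fell and 0 rose, which is 18.75% beside 12.2% of all genes. They were Nlrc5, the activator of MHC class I genes, at 6.26, 15.3, 12.2 and 12.8 CPM and 0.331, 0, 0.854 and 0.252 CPM (-3.19 ± 0.29), and the immunoproteasome subunits Psmb8 (-2.52 ± 0.34) and Psmb10 (-2.64 ± 0.45). In this list edgeR called 5 lower and 1 higher.

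Cell cycle genes had lower values in ΔC/- cells, and the count that passed the test depended on the fit. All 40 tested cell cycle and replication genes had a negative difference, with a median of -1.13, and 0 were called in limma and in edgeR. Mki67, the proliferation marker, was at 888, 152, 118 and 524 CPM in ΔC/fl and 109.9, 311, 11.6 and 38.2 CPM in ΔC/- cells (-2.24 ± 0.80, adjusted p = 0.0862). Its values differed widely between replicates of the same genotype and experiment. The replicate number as a block gave 15 lower genes, leaving out replicate 2 of the Wnt3a experiment of ΔC/- cells 18, leaving out replicate 2 of the Wnt3a experiment of ΔC/fl cells 3, and the 2 samples against 2 of the TGFβ experiment 4. Of 24 tested p53 targets and cell cycle inhibitors 4 rose and 3 fell. Cdkn1a, the gene of the inhibitor p21, was at 133, 162, 119 and 169.8 CPM and 441, 249.8, 476 and 479 CPM (1.46 ± 0.24, adjusted p = 0.00341), and Mdm2, which degrades p53, at 301, 173, 226 and 287 CPM and 1025, 390.0, 633 and 833 CPM (1.49 ± 0.31, not called without replicate 2 of ΔC/- cells in the TGFβ experiment, adjusted p = 0.0519). Pmaip1, a pro-apoptotic p53 target, fell (-2.39 ± 0.37). Zmat3, Phlda3, Eda2r and Cdkn2a were the other 4 that were called, of which Phlda3, Eda2r and Cdkn2a lost the call without some single samples (4, 7 and 4 of 8).

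The TGFβ list had 3 higher and 6 lower of 32 tested genes (median -0.30). Bmp4, a ligand of the bone morphogenetic proteins, was at 3.99, 10.3, 34.3 and 18.0 CPM in ΔC/fl and 0.497, 0.277, 1.13 and 0.566 CPM in ΔC/- cells (-3.13 ± 0.39), and its relative Bmp7 at 0, 0, 0.04 and 0 CPM and 1.04, 1.21, 1.86 and 2.36 CPM (1.35 ± 0.18). Id3, a target of BMP signals, was at 14.1, 42.7, 25.7 and 35.5 CPM and 0.621, 11.2, 2.6 and 2.45 CPM (-2.84 ± 0.60). In the glycolysis and hypoxia list 5 of 28 tested genes fell and 4 rose (median -0.67). Pdk1, which inhibits pyruvate dehydrogenase, was at 17.7, 28.9, 33.7 and 21.4 CPM and 1.41, 3.99, 1.94 and 1.7 CPM (-3.04 ± 0.32), Egln3 had no read in ΔC/- cells and was at least 35.5-fold lower, and P4ha2, a prolyl hydroxylase of collagen, rose from 6.55, 12.6, 33.3 and 25.6 CPM to 52.5, 51.8, 157 and 125 CPM (2.31 ± 0.23). Jag1, a Notch ligand, was at 18.6, 10.9, 23.2 and 17.4 CPM and 103, 44.4, 79.1 and 75.1 CPM (2.03 ± 0.30), the 1 gene that rose of 13 in the Notch list, and its target Hey1 was the 1 that fell (-1.09 ± 0.17). The called share of the Notch list was 15.4%, beside 12.2% of all genes. In the IGF list of 12 tested genes 2 rose and 2 fell. Of the rises Igf2, a growth factor gene at 0.0973, 0.0862, 4.88 and 0.698 CPM and 6.54, 7.18, 6.91 and 7.71 CPM (2.12 ± 0.43, adjusted p = 0.00982), was not called in edgeR (adjusted p = 0.0598). The others include the binding protein Igfbp4 at 44.4, 202, 197 and 134 CPM and 5.22, 1.11, 4.08 and 4.18 CPM (-4.86 ± 0.49) and the RNA-binding Igf2bp2 at 116, 99.2, 122 and 123 CPM and 285, 236, 251 and 255 CPM (1.15 ± 0.15). Of 24 genes of ER stress 2 rose (Trib3 and Ppp1r15a) and 0 fell, which is 8.33% beside 12.2% of all genes. Ppp1r15a was at 13.6, 29.7, 67.6 and 27.4 CPM and 211, 34.9, 399 and 253 CPM, with overlapping groups, and lost its call in 4 of 8 fits without 1 sample (adjusted p of 0.0502 to 0.0624). No gene of 27 tested in cholesterol and fatty acid synthesis was called in limma or edgeR (median -0.27).

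The largest rises were in genes without a common list. Ebf3, a transcription factor of early B cell factor type, was at 0, 0.0431, 0.2 and 0.0317 CPM in ΔC/fl and 14.990, 11.7, 15.2 and 16.2 CPM in ΔC/- cells (3.85 ± 0.19, adjusted p = 2.74e-05). Kcnq1, a potassium channel, was at 0.0648, 0.215, 0.52 and 0.222 CPM and 6.05, 6.45, 27.4 and 24.5 CPM (3.49 ± 0.33), and the X-linked homeobox gene Rhox5 at 0.875, 1.9, 0.96 and 1.14 CPM and 22.1, 50.2, 17.0 and 20.2 CPM (3.57 ± 0.31). The other genes among the 10 largest rises were Susd4 (3.62), Chn2 (3.49), Syt17 (3.45), Gpr20 (3.41), Nhsl2 (3.39), Ckmt1 (3.24) and Trp53i11 (3.23).

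Some called genes lay side by side on the chromosomes, which was looked at after the values were seen. In 9 stretches, 4 or more consecutive tested genes were called in the same direction. Hox genes, which set positional identity, made up 2 of them, Hoxb9, Hoxb8, Hoxb6, Hoxb5 and Hoxb3 with the neighbour Gm53 on chromosome 11 and Hoxc13, Hoxc10, Hoxc9, Hoxc6 and Hoxc4 on chromosome 15, all lower in ΔC/- cells. Of 36 Hox genes 16 were tested. Of these 12 fell and 1, Hoxb4, which lies in the same cluster as Hoxb9, rose, beside 6.64% lower and 5.56% higher of all genes tested. Some, such as Hoxb8, Hoxb9 and Hoxc10, reached the 1 CPM needed for a test only in ΔC/fl cells. For these only a fall could be called, so the count is in part fixed by the filter. Hoxb9 was at 13.3, 30.7, 51.8 and 25.5 CPM in ΔC/fl and 0, 0.0347, 0 and 0 CPM in ΔC/- cells (-4.80 ± 0.34). The protocadherin γ genes of chromosome 18 formed a run of 22 genes that all fell by 1.802 to 2.10 on the log2 scale, but they share their last exons and reads there may be counted for several of them, so that they count as 1 observation. On chromosome 3, S100a8 (2.05 ± 0.27) and S100a9, which encode the subunits of calprotectin, rose together with neighbours, and Gbp7, Gbp3 and Gbp2 fell. Reads of near-identical copies were kept only where unique, which makes the run of Tcstv and related genes on chromosome 13 and of zinc finger genes on chromosome 4 uncertain.

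Whole chromosomes also differed in their median. The median over 392 tested genes of chromosome 16 was 0.58, against 0.02 over all genes, with 54 genes called higher (13.8%) and 14 lower (3.57%), and it was 0.56 in the Wnt3a and 0.58 in the TGFβ experiment. Taken as the median difference from the mean of the ΔC/fl cells, over the 320 genes of this chromosome whose mean reached 10 CPM in at least 1 of the genotypes, the 4 ΔC/- samples were at 0.65, 0.62, 0.58 and 0.64 and the 4 ΔC/fl samples at 0.11, -0.02, -0.02 and -0.01. Against the 4 untreated fl/fl samples, whose alleles are both floxed and not mutated, the median of chromosome 16 was 0.54 in ΔC/- and -0.03 in ΔC/fl cells. The same median was 0.46 in treated ΔC cells, -0.20 in the dm pair and -0.03 in the D164A pair. Chromosome 15 had a median of 0.29 and chromosome 8 one of -0.23, with 9 genes higher and 48 lower on the latter. By sample these were less clear than chromosome 16. On chromosome 15 the groups overlapped, with ΔC/- samples at 0.113 to 0.455 and ΔC/fl samples at -0.156 to 0.247. On chromosome 8 they barely separated, with ΔC/- samples at -0.422 to -0.112 and ΔC/fl samples at -0.106 to 0.182. Differences of single genes, such as that of Mx1 on chromosome 16, were not adjusted for the chromosome.

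**Figure D4:**
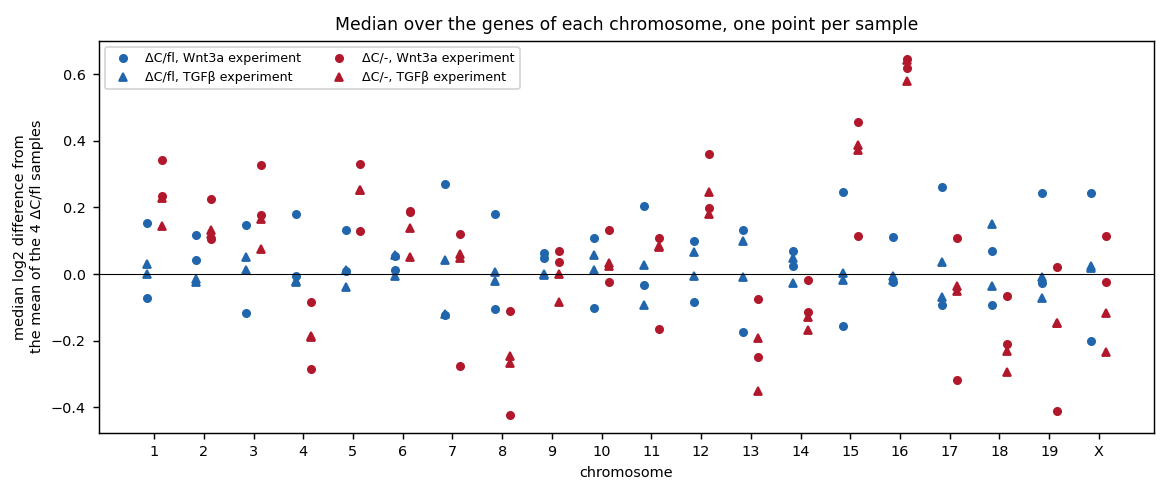
Each point is 1 sample on 1 chromosome, plotted as the median over genes of its log2 difference from the mean of the 4 ΔC/fl samples, with ΔC/fl in blue, ΔC/- in red, circles for the Wnt3a and triangles for the TGFβ experiment. On chromosome 16 the 4 ΔC/- samples lie between 0.58 and 0.65 and the 4 ΔC/fl samples between -0.02 and 0.11.

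The levels in fl/fl cells put the differences in place, as a description. Of the 814 genes that were lower in ΔC/- than in ΔC/fl cells, 390 (47.9%) had all 4 ΔC/fl values above all 4 untreated fl/fl values, beside 15.2% of all tested genes, and 386 (47.4%) had all 4 ΔC/- values below them, beside 14.1%. In the 22 genes of the mesenchymal and EMT list that fell, the ΔC/fl values were above those of fl/fl cells in 15, and the ΔC/- values overlapped with them in 10 and were below in 8. Vim was at 38.2 to 119 CPM in fl/fl cells, a range that overlapped with the ΔC/- values, and Col6a1 at 0 to 0.805 CPM. Mmp14 differed from these, with 303 to 479 CPM in fl/fl cells, above both ΔC genotypes. Of the 682 genes that were higher, 397 (58.2%) had all ΔC/- values above those of fl/fl cells, beside 19.3% of all tested genes. The called genes were chosen by a gap between ΔC/- and ΔC/fl cells. Shares above those of all tested genes follow in part from that choice.

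ΔC/- and ΔC/fl cells given Wnt3a or TGFβ were 8 further samples that the comparison above did not use. In the methods, which do not name the ΔC lines, established cell lines were treated and their untreated cells served as control. The treated samples are therefore not taken as independent lines, and shared calls are read as a repeat measurement of the same lines. In these treated cells 1716 of 12216 tested genes differed between ΔC/- and ΔC/fl cells (14%, 771 or 6.31% higher and 945 or 7.74% lower), and 1100 without replicate 2 of the ΔC/- cells in the TGFβ experiment. Of the 1496 genes called in untreated cells, 1454 could be tested in treated cells, 1434 had the same direction and 1001 were also called in it, which is 66.9% of the untreated and 58.3% of the treated calls. Of the mesenchymal and EMT list 21 genes were lower and 0 higher, and Vim differed by -4.05 and Lgr6 by 1.64. Of 34 tested junction genes 19 were higher and 0 lower, beside 4 and 1 in untreated cells, with Cdh1 at 1.85 (adjusted p = 0.0303). This fit joined cells given Wnt3a and cells given TGFβ. With Wnt3a the groups overlapped for Cdh1, at 310 and 198 CPM in ΔC/fl and 286 and 454 CPM in ΔC/- cells. With TGFβ it was at 73.4 and 49.9 CPM in ΔC/fl and 506 and 589 CPM in ΔC/- cells. Whether the other junction genes divided by treatment was not tested. Of the cell cycle genes 13 were lower. Krt14 (-1.997, adjusted p = 0.136) and Myc (0.40) were not called in treated cells. The difference between the treated and the untreated comparison was not tested.

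The 2 other mutant alleles of the series, D164A, a point mutation known to prevent the binding of Bcl9, and dm, which the labels do not explain, were each measured as the allele over a deleted and over a floxed allele in 8 untreated samples. They share no sample with the ΔC pair. The dm pair gave 2016 calls of 12333 tested (16.3%, with 6.23% higher and 10.1% lower) and the D164A pair 878 of 12064 (7.28%, with 3.08% higher and 4.19% lower). Of the 1496 genes called in the ΔC pair, 546 were called in the same direction in the dm pair (36.5% of the ΔC and 27.1% of the dm calls) and 120 in the opposite one. In the D164A pair 78 were called in the same direction (5.21% of the ΔC and 8.88% of the D164A calls) and 168 in the opposite one. The difference between the pairs was tested directly. It was called for 1723 of 13268 genes between the ΔC and dm pairs (13%, with 7.61% more positive and 5.37% more negative in the ΔC pair) and for 2774 between the ΔC and D164A pairs (20.9%, with 10.5% and 10.4%), and 521 of the 1496 genes differed from both. Without replicate 1 of the untreated dm/fl cells of the Wnt3a experiment, left out after the data were seen, the first count was 2217.

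Of the mesenchymal and EMT list 23 genes fell and 0 rose among the 31 tested in the dm pair, and 5 fell and 2 rose among the 21 tested in the D164A pair. Vim differed by -9.78 in the dm pair and 2.05 in the D164A pair, the latter not called, and the ΔC difference minus the D164A difference was -7.24 (adjusted p = 5.14e-06). Pdgfrb was at 0 to 0.0721 CPM in D164A/fl and 0 to 0.0386 CPM in D164A/- cells, near 0 in both (-7.70, adjusted p = 4.09e-08). The basal list differed from this, with 4 of 17 tested genes lower in the ΔC pair, 14 of 24 in the dm pair and 10 of 25 in the D164A pair. In the same order, 1, 0 and 2 of its genes were higher. Over all genes tested, 6.64%, 10.1% and 4.19% were called lower in these pairs. The tested genes of the list were not the same in each pair. In all, 32 genes were called in the same direction in the 3 pairs, 29 lower and 3 higher, among them Ccnd2, a cyclin of G1 phase (-5.25 in the ΔC, -3.78 in the dm and -3.72 in the D164A pair), Hspb8, Igfbp4, Krt6a and Dsg3.

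The genes for which the ΔC pair differed most from the dm pair include some that moved in opposite directions. Gpnmb, a glycoprotein of melanosomes and lysosomes, was at 7.17, 35.6, 77.5 and 47.0 CPM in ΔC/fl and 0, 0, 0 and 0.0629 CPM in ΔC/- cells, but at 0.523 to 4.62 CPM in dm/fl and 52.1 to 234 CPM in dm/- cells (difference of differences -9.97 ± 0.59). Cldn7 fell in the ΔC pair and was at 0.43 to 1.5 CPM in dm/fl and 117 to 209.8 CPM in dm/- cells (-8.30 ± 0.42). Rhox5 rose in the ΔC pair and was at 18.0 to 59.0 CPM in dm/fl and 0 to 0.119 CPM in dm/- cells (8.54 ± 0.39). Xist, the RNA that silences an X chromosome, was at 873, 191, 678 and 764 CPM in ΔC/fl and 2196, 1321, 1223 and 1758 CPM in ΔC/- cells and at 0 to 0.909 CPM in dm/- cells (10.36), and its ΔC difference alone was not called in 6 of the fits without 1 sample (adjusted p of 0.0674 to 0.122). Against the D164A pair, the cell surface receptor Adgre5 had the largest negative difference. It had no read in ΔC/- cells, was at 4.54, 14.9, 25.2 and 15.7 CPM in ΔC/fl cells, and was at 0 to 0.036 CPM in D164A/fl and 5.87 to 34.2 CPM in D164A/- cells (-8.03 ± 0.58). Il1a, which rose in the ΔC pair, was at 5.73 to 74.7 CPM in D164A/fl and 0.232 to 2.03 CPM in D164A/- cells (7.42 ± 0.98), and Il23a showed the same pattern (7.20).

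**Figure D5:**
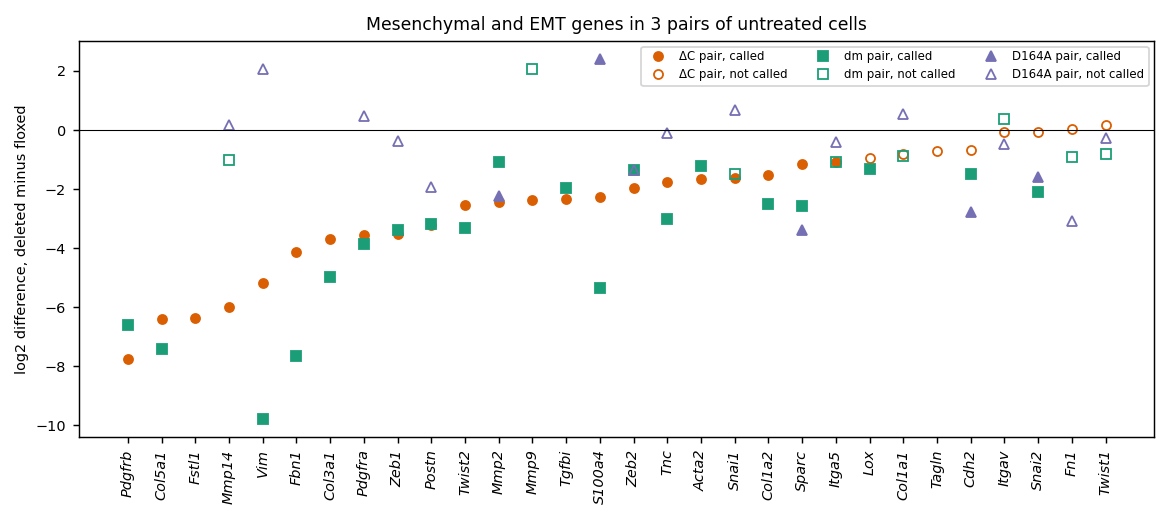
For 30 of the 31 tested genes of the mesenchymal and EMT list, in the order of their ΔC difference, the y axis gives the log2 difference of the deleted minus the floxed genotype in the ΔC (circles), dm (squares) and D164A (triangles) pairs of untreated cells. Filled symbols were called, and a missing symbol means that the gene was too low for a test in that pair. The ΔC and dm symbols lie mostly below 0, with 21 and 20 filled, and 5 D164A symbols are filled.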

How the data were processed

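RNA-sequencing values of 56 samples were used, of which 8 are compared here, and samples were grouped by their labels. In the methods, the authors made strand-specific libraries of poly(A) RNA, mapped single-end reads to mm10 with STAR, kept unique hits and counted reads on RefSeq genes with QuasR. The deposited values are a normalized signal, read counts divided by an effective library size, called CPM here, whose sum varies by sample. Dividing by the step of 1 read gave whole numbers for 100% of values (tolerance 0.001), so reads were recovered. Of 20314 genes, 20261 matched a symbol in the RefSeq table of GRCm38.p6.

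Genes that reached 1 CPM in 2 or more samples were tested on log2(CPM + 1), pseudocount 1, with limma 3.58.1 (trend) in R 4.3.3, with the experiment as a term, and p-values were adjusted over all genes tested with Benjamini-Hochberg. The pairs were compared in 1 fit over 24 untreated samples. edgeR 4.0.16 (quasi-likelihood, TMM) on the recovered reads, which called 1783 genes, a pseudocount of 0.1, no filter, median-of-ratios scaling, removal of the GC trend (lowess, span 0.3), a replicate block, other samples and other thresholds were the alternatives. The tests of the untreated pair, of the treated pair and of the difference from the dm pair were first tried on simulated data. Those of the difference between the experiments and from the D164A pair were not.

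Named genes were a panel of 20 genes, the 10 largest rises and falls among called genes with no overlap, the same sign in both experiments and at least 5 CPM in the higher group, up to 3 rises and 3 falls of each list, and the 4 largest differences from the dm and D164A pairs in each direction. Not each is described, and 1 gene is not reported here. The comparison, lists and members were chosen with earlier results of these data known. Tables and plots were made with Python 3.11.15, pandas 2.3.3 and matplotlib 3.10.9.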

Additional observations from a re-analysis of the deposited data

Results flagged for a closer look

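The ΔC pair differed from the dm pair, by the test of the difference between the pairs, in Xist (10.36), Rhox5 (8.54), Slc43a3 (7.38) and Armcx2 (6.92), which were higher, and in Gpnmb (-9.97), Cldn7 (-8.30), Glipr2 (-7.42) and Fstl1 (-6.10), which were lower. It differed from the D164A pair in Il1a (7.42), Il23a (7.20), Odaph (6.97) and Reep6 (5.85), which were higher, and in Adgre5 (-8.03), Pdgfrb (-7.70), Vim (-7.24) and Cpq (-7.10), which were lower. Values are log2 differences. Fstl1 was at 0.136 to 0.351 CPM in dm/fl and 0 to 0.0611 CPM in dm/- cells, too low for a test in the dm pair. Pdgfrb was near 0 in both D164A genotypes. The values of these genes therefore restate the fall in the ΔC pair.

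In 20 of 278 tests of a gene in 4 samples of a genotype, 1 sample stood apart by Dixon's criterion, where chance gives about 1 in 20. In ΔC/- cells, replicate 2 of the Wnt3a experiment was the low sample for Fn1 (1988 CPM, others 5552 to 5895), Cdkn1a (249.8 CPM), Odaph (34.6 CPM) and Dsg3 (5.72 CPM) and the high one for Epcam (576 CPM, others 379 to 407). Replicate 1 of that experiment was the low sample for Bcl9l (23.5 CPM, others 104 to 117), Jup (117 CPM, others 394 to 467) and Trp63 (0.0828 CPM). In ΔC/fl cells the samples that stood apart were those of Cldn1 (59.0 CPM) and Xist (191 CPM) in the Wnt3a experiment and Cdh2 (107 CPM) in the TGFβ experiment. In the remaining cases the level was that of a few reads, for Ifit3 (0.194 CPM), Mmp14 (0.0776 CPM), Gpnmb (0.0629 CPM), Bmp7 and Gpr20 (0.0400 CPM each), Acta2 and Hoxb9 (0.0347 CPM each) and Col6a2 and Myl9 (0.0315 CPM each).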

How the results depend on the processing

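Counts of called genes in the ΔC pair were 1339 to 1788 with another pseudocount, filter, scaling, test, block or GC correction, 1681 in a fit over all 56 samples and 1273 without the experiment term. They were 3445 at an unadjusted p of 0.05 and 1.5-fold, 140 in the Wnt3a experiment alone and 2066 in the TGFβ experiment alone, where fewer samples were fitted. Leaving out 1 ΔC sample gave 1011 to 1961 calls for the untreated ΔC pair, 0 to 0 for the difference between the experiments, 1484 to 1713 for the difference from the dm pair, 2380 to 3058 for that from the D164A pair and 1100 to 1932 for treated cells. Without replicate 1 of dm/fl in the untreated Wnt3a experiment, chosen after the data were seen, the difference from dm gave 2217, and no other dm or D164A sample was left out. At an unadjusted p of 0.05 and 1.5-fold the counts of the last 4 comparisons were 298, 3303, 4599 and 3729. The labels do not say that a replicate number marks a batch or day, and the pairing is not established. Deviations of same-numbered samples correlated by 0.46 and 0.29 in the untreated ΔC cells of the Wnt3a and TGFβ experiments, by 0.41 and -0.14 in treated ΔC cells and by -0.56 and -0.13 in untreated dm cells. The replicate block gave 1718 calls in the untreated pair, of which 1493 were among the 1496, and it changed no call of a named gene. Among the lists it moved by over 1.5 times only the rises of proteases (5) and YAP/TEAD targets (1) and the falls of cell cycle (15), cholesterol (1) and glycolysis genes (8). It gave 1650 for the difference from dm, 2768 for D164A and 1733 for treated cells, and 0 for the difference between the experiments. A crossed pairing, chosen after the data were seen because same-numbered samples deviated in opposite directions, gave 1923 calls for the difference from dm and 1789 for treated cells. The share of higher calls was 45.6%, 40.6% with the median of ratios and 37.9% with the GC trend removed and the block. Removal of the GC trend gave 1662 calls. The difference between the experiments followed GC content (Spearman's ρ over genes 0.60), and the cause was not tested.

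Of 2813 values of 141 genes under the alternatives, 2596 kept direction and side of the threshold, 177 lost the call, 13 gained one and 27 changed sign, all in 6 genes that were not called. Xist, Eda2r and Igf2 lost the call with edgeR (adjusted p = 0.068, 0.0733 and 0.0598), and Xist, Krt18 and Myc with the median of ratios. The values that changed sign were, for Fn1, -0.018 with the median of ratios, -0.0059 with the GC trend removed with and without the block, and -0.50 in the TGFβ experiment alone, for Krt8, 0.083 with edgeR, 0.014 with the GC trend removed with and without the block and 0.000287 in the TGFβ experiment, for Snai2, 0.083 with edgeR and 0.29 in the Wnt3a experiment, for Cdh1, 0.14 in the Wnt3a experiment, for Tcf7l2, 0.024 in the Wnt3a experiment, and for Bcl9, 0.024 in the TGFβ experiment. With 1 sample left out, the differences ranged from -0.37 to 0.38 for Fn1, -0.53 to 0.46 for Krt8, -0.55 to 0.31 for Snai2, -0.16 to 0.0043 for Cdh1 and -0.21 to 0.091 for Bcl9. Depth limits genes under 0.129 CPM, which are not told from absent.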
